A study of Homo sapiens with 8 samples.

Results

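The 10 genes described here carry cells past the G1 to S boundary of the cell cycle: the D cyclins CCND1, CCND2 and CCND3 with their kinases CDK4 and CDK6, the E cyclins CCNE1 and CCNE2 and the S phase cyclin CCNA2 with their kinase CDK2, and the phosphatase CDC25A. They were chosen by symbol, and each matched 1 of the 23786 gene features of the table. RNA of the human melanoma lines WM983B and SK-Mel5 was hybridized to Affymetrix Human Gene 2.0 ST arrays in 4 groups of 2 arrays each: WM983B with shp300, WM983B with scrambled shRNA, SK-Mel5 with shp300 and SK-Mel5 with scrambled shRNA. The shp300 label names a short hairpin RNA that targets p300, a histone acetyltransferase encoded by EP300, and the study asked how melanoma lines respond to the loss of p300. Cells of all 4 groups were grown in Dulbecco's medium, transduced with pLKO1 lentivirus in 8 µg/mL polybrene and selected in 1.5 µg/mL puromycin beginning 48 h later. The sources used here do not give the hairpin's sequence, the number of hairpins or the time of harvest. Nothing in the labels says that both arrays of a group were grown apart, so each p-value reflects only how these arrays vary, which may be technical.

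As background, D cyclins bind CDK4 or CDK6 in response to growth signals, and these kinases begin to phosphorylate the retinoblastoma protein RB, which holds back the E2F transcription factors. E2F then drives transcription of the E cyclins, CCNA2, CDC25A and the genes of DNA replication, and cyclin E with CDK2 completes the phosphorylation of RB. Inhibitors of the INK4 family (CDKN2A and CDKN2B among them) bind CDK4 and CDK6, while CDKN1A and CDKN1B bind the CDK2 complexes. In melanoma the RB pathway is often altered through loss of CDKN2A, mutation of CDK4 or amplification of CCND1, and MITF, the master regulator of melanocytes, is known to activate CDK2.

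All values are log2 expression values after RMA, a method that corrects background, normalizes arrays to each other and summarizes the probes of a feature. Arrays of 1 group correlated at r between 0.992 and 0.995 across features. Median values lay between 4.26 and 4.28 on the WM983B arrays and between 2.96 and 3.01 on the SK-Mel5 arrays, so a level in 1 line cannot be set against a level in the other and only the changes within each line are compared. EP300 itself was at 6.92 and 7.26 on the WM983B arrays labelled shp300, against 7.10 and 7.22 with scrambled shRNA, a change of -0.07 (95% interval -0.43 to 0.29, adjusted p = 0.832). SK-Mel5 cells had EP300 at 5.97 and 6.10 with shp300, against 7.19 and 6.90 with scrambled shRNA, and EP300 fell by 1.01 (adjusted p = 0.00377). A lower EP300 level was therefore measured in SK-Mel5 and not in WM983B, and the WM983B groups below are named by their labels. The 7 measured markers of melanocytes all lay above the median feature in every group. Their mean ran over 9.01 to 9.25 in the arrays labelled shp300, against 10.4 to 10.5 with scrambled shRNA in WM983B, and over 9.18 to 9.26 with shp300, against 9.38 to 9.41 with scrambled shRNA in SK-Mel5. Single markers changed unequally, from -4.05 (TYRP1) to 0.22 (TYR) in WM983B and from -1.47 (MLANA) to 0.64 (TYR) in SK-Mel5.

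CCNE1, CCNE2, CCNA2 and CDC25A fell under shp300 in both lines, while CCND1 rose in WM983B and CDK6 rose in WM983B and fell in SK-Mel5. In WM983B 2 of the 10 genes rose, CCND1 and CDK6, where 10.9% of all features rose. In the same line 7 fell, CCND3, CCNE1, CCNE2, CCNA2, CDK2, CDK4 and CDC25A, where 11.6% of all features fell, and CCND2 was not called. In SK-Mel5 none rose, where 7.57% of all features did, and 5 fell, CCNE1, CCNE2, CCNA2, CDK6 and CDC25A, where 8.80% of all features fell. The median change of the 10 genes was -0.80 in WM983B and -0.45 in SK-Mel5, beside medians over all features of 0.02 and 0.01 in the same lines. A gene counts as having risen or fallen where limma's adjusted p, taken over all features, is under 0.05. In RNA from whole cultures a smaller number of cycling cells and less of a transcript per cell cannot be told apart. MKI67, a gene expressed in cycling cells, was at 6.73 and 7.04 on the WM983B arrays labelled shp300, against 8.00 and 8.11 with scrambled shRNA. SK-Mel5 cells had MKI67 at 5.49 and 5.42 with shp300, against 6.68 and 6.56 with scrambled shRNA. MKI67 fell by 1.17 in each line (adjusted p = 0.00066 in WM983B and 0.000999 in SK-Mel5), and its part in the changes of the 10 genes was not tested.

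**Figure D1:**
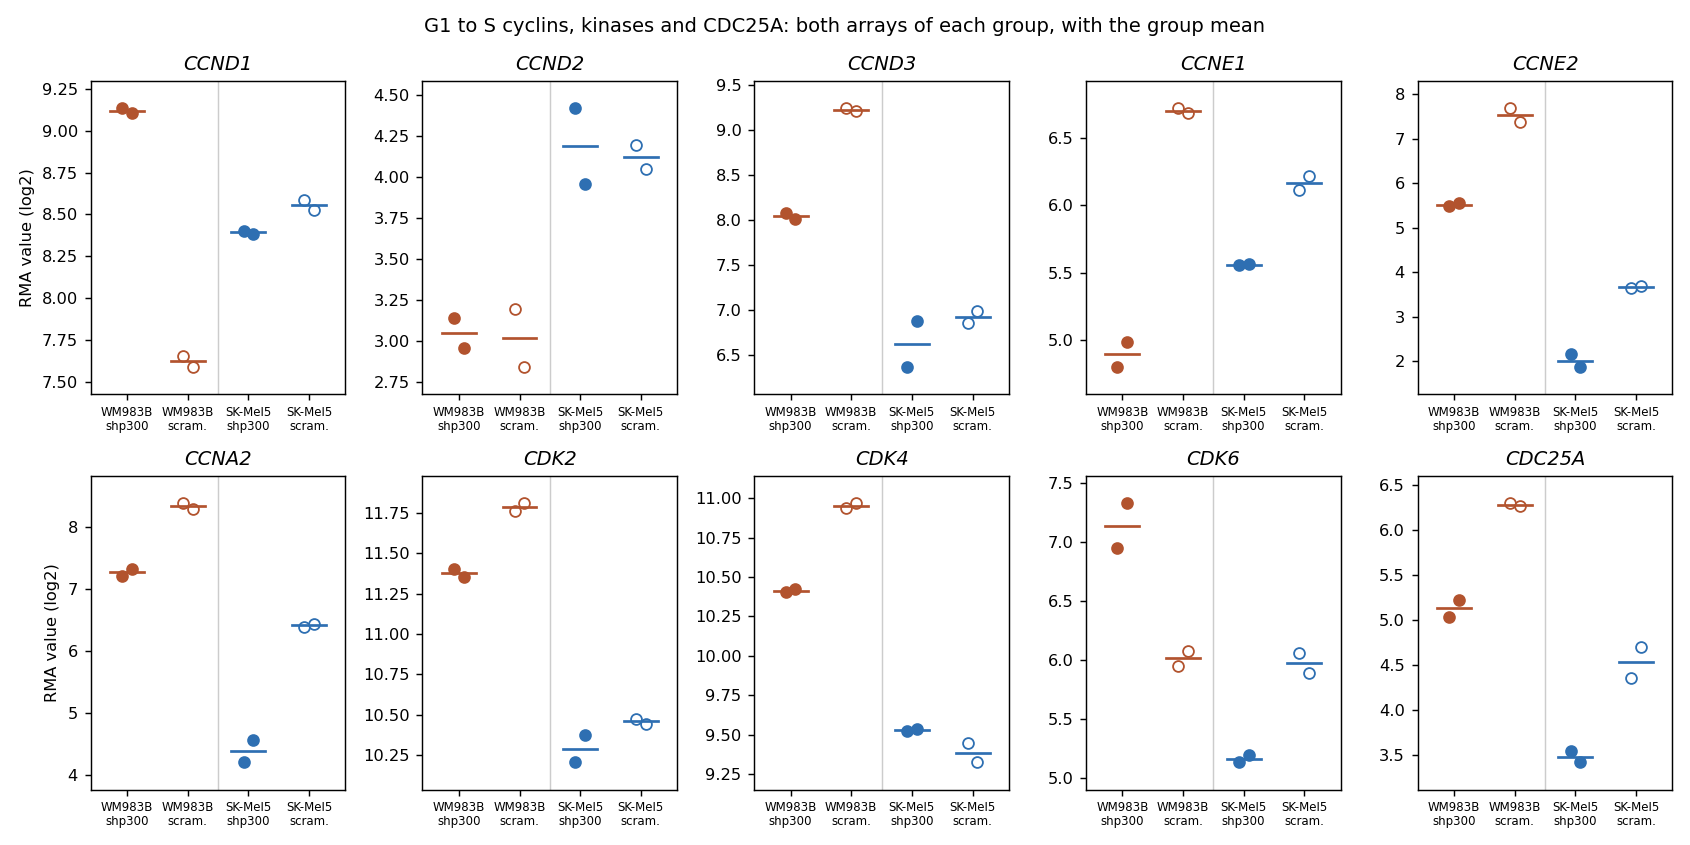
The log2 RMA value of each of the 10 genes is plotted for both arrays of each group, filled for shp300 and open for scrambled shRNA, with a line at the group mean and a separate vertical range for each gene. In WM983B the CCND1 and CDK6 arrays labelled shp300 lie above their scrambled arrays, those of CCND2 are interleaved, and those of the other 7 genes lie below.

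CCND1, which encodes cyclin D1, the D cyclin most often amplified in melanoma, rose in WM983B. It was at 9.13 and 9.11 on the arrays labelled shp300, against 7.65 and 7.59 with scrambled shRNA. These groups stood far apart, and the increase of 1.50 (SE 0.10) corresponded to 2.83-fold (95% interval of the log2 change 1.27 to 1.73, adjusted p = 7.42e-05). In SK-Mel5 CCND1 was at 8.40 and 8.38 with shp300, against 8.59 and 8.52 with scrambled shRNA. Both shp300 arrays were lower, by 0.16 on average, which did not pass the test (95% interval -0.40 to 0.07, adjusted p = 0.366).

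CCND3, which encodes cyclin D3, moved the other way from CCND1 in WM983B. Its values were 8.08 and 8.01 on the arrays labelled shp300, against 9.24 and 9.21 with scrambled shRNA, and it fell by 1.18 (SE 0.17, 2.26-fold, adjusted p = 0.0019). In SK-Mel5 CCND3 was at 6.37 and 6.88 with shp300, against 6.86 and 6.99 with scrambled shRNA. The SK-Mel5 groups overlapped, with a change of -0.30 (95% interval -0.69 to 0.09, adjusted p = 0.307). That value rested on 1 array: without SK-Mel5 shp300 replicate 2 the change was -0.56 (adjusted p = 0.0423).

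CCND2, which encodes cyclin D2, was at 3.14 and 2.96 on the WM983B arrays labelled shp300, against 3.20 and 2.84 with scrambled shRNA. In SK-Mel5 it was at 4.42 and 3.95 with shp300, against 4.19 and 4.05 with scrambled shRNA. The groups overlapped in both lines, with changes of 0.03 in WM983B (95% interval -0.40 to 0.46) and 0.07 in SK-Mel5 (95% interval -0.36 to 0.50). In WM983B CCND2 lay below the median feature, at the 33.3rd percentile with the shp300 label and the 33.2nd with scrambled shRNA, so the size of a change there is less certain.

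Set against each other on the same array, the D cyclins changed unequally in WM983B. The value of CCND1 minus that of CCND3 was 1.05 and 1.09 on the arrays labelled shp300, against -1.59 and -1.62 with scrambled shRNA, a shift of 2.68. In SK-Mel5 the same quantity was 2.03 and 1.50 with shp300, against 1.73 and 1.53 with scrambled shRNA, and these arrays overlapped, with a shift of 0.14. Only the shift between groups can be read from these values, because 2 features on 1 array do not share a scale.

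CDK6 and CDK4 encode the kinases that D cyclins activate, and CDK6 changed in opposite directions in the 2 lines. In WM983B CDK6 was at 6.95 and 7.33 on the arrays labelled shp300, against 5.95 and 6.08 with scrambled shRNA, an increase of 1.12 (SE 0.15, 2.18-fold, adjusted p = 0.00126). In SK-Mel5 it was at 5.13 and 5.20 with shp300, against 6.06 and 5.89 with scrambled shRNA. Both shp300 arrays lay below both scrambled arrays there, and CDK6 fell by 0.81 (1.75-fold, adjusted p = 0.00813). The SK-Mel5 call was lost without SK-Mel5 scrambled replicate 1, where the change was -0.72 (adjusted p = 0.0595), and the WM983B call was kept in every setting tried.

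CDK4 fell in WM983B, where it was at 10.40 and 10.42 on the arrays labelled shp300, against 10.94 and 10.97 with scrambled shRNA. The 4 arrays separated by several times their spread, and the fall was 0.54 (SE 0.10, 1.45-fold, adjusted p = 0.00743). It was just outside the threshold without WM983B scrambled replicate 2, at -0.52 (adjusted p = 0.051). In SK-Mel5 CDK4 was at 9.52 and 9.54 with shp300, against 9.45 and 9.32 with scrambled shRNA, a change of 0.15 in the other direction that did not pass the test (95% interval -0.09 to 0.38, adjusted p = 0.437). The value of CDK6 minus that of CDK4 shifted by 1.66 in WM983B, where it was -3.45 and -3.10 with the shp300 label, against -4.99 and -4.89 with scrambled shRNA. It shifted by -0.95 in SK-Mel5, where it was -4.39 and -4.34 with shp300, against -3.39 and -3.43 with scrambled shRNA. CDK4 overlaps TSPAN31, a tetraspanin gene, and MIR6759 in the annotation, so the probes of these genes could share transcripts. TSPAN31 rose in WM983B by 1.06 (adjusted p = 0.00116), opposite to CDK4. Its rise of 0.68 in SK-Mel5 (adjusted p = 0.0123) lost its call without SK-Mel5 scrambled replicate 1 or 2 or SK-Mel5 shp300 replicate 1 (adjusted p up to 0.0713).

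The CDK4 promoter is printed because it held more matches than that of any other member, and because CACGTG is the E-box read by MITF and by MYC, both known to act in melanoma. The 220 bases before the annotated start of CDK4 (RefSeq, GRCh38.p14, chr12:57752311-57752530, minus strand, 5′ to 3′) carry CACGTG at -216, -196 and -101 and the M-box core CATGTG, read on the other strand as CACATG, at -34 from the start. Capitals mark these letters.
CDK4: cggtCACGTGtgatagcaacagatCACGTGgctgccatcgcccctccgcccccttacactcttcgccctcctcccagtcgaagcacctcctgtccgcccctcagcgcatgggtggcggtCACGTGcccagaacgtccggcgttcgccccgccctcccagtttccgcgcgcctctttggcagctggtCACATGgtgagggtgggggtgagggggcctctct
Over all 35116 promoter windows of the table, each reaching 250 bases before and 50 after a start, 7.26% hold CACGTG on either strand and 11.1% hold CATGTG. A match is a description of the letters only, and a part of MITF or MYC in the changes of CDK4 was not tested. MITF itself fell by 1.71 in WM983B (adjusted p = 0.000173), where it was at 7.37 and 6.98 with the shp300 label, against 8.92 and 8.85 with scrambled shRNA. In SK-Mel5 MITF was at 7.14 and 7.12 with shp300, against 7.33 and 7.43 with scrambled shRNA, a change of -0.25 that did not pass the test (adjusted p = 0.31). MYC was at 8.39 and 8.16 with the shp300 label, against 8.72 and 8.80 with scrambled shRNA in WM983B, and fell by 0.49 (adjusted p = 0.0204), a call lost without replicate 1 or 2 of WM983B scrambled or replicate 2 of WM983B shp300 (adjusted p up to 0.116). With shp300 in SK-Mel5 MYC was at 8.16 and 8.23, against 8.52 and 8.49 with scrambled shRNA, a change of -0.31 that was not called (adjusted p = 0.124). CDK6 had CACGTG at 31 bases after the start in 1 of its windows.

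**Figure D2:**
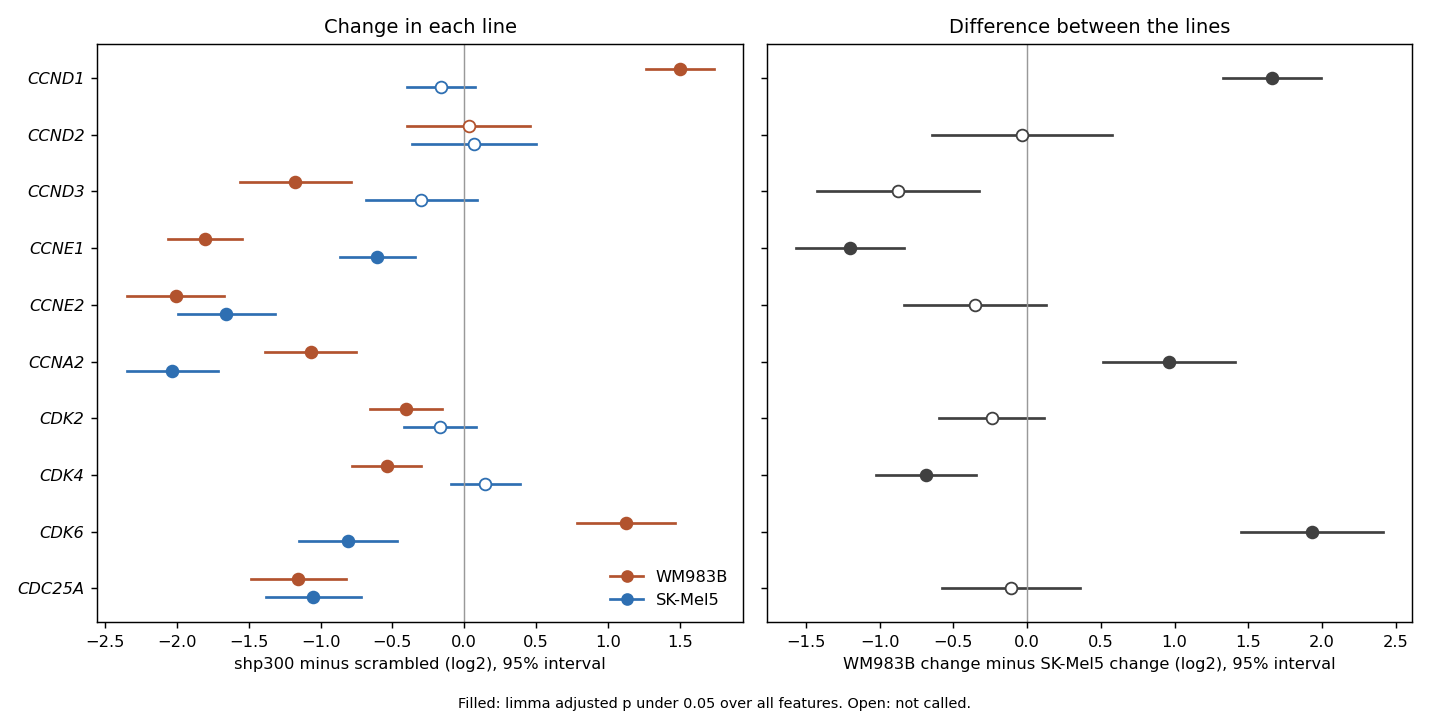
The left panel plots the log2 change (shp300 minus scrambled) of each gene in WM983B and SK-Mel5, and the right panel the WM983B change minus the SK-Mel5 change, each with its 95% interval, filled where limma's adjusted p is under 0.05. CCND1 at 1.66 and CDK6 at 1.93 stand farthest to the right in the panel of differences and CCNE1 at -1.20 farthest to the left.

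The E cyclins, which activate CDK2 at the onset of S phase, fell in both lines. CCNE1 was at 4.80 and 4.99 on the WM983B arrays labelled shp300, against 6.72 and 6.68 with scrambled shRNA, and it fell by 1.80 (SE 0.11, 3.49-fold, adjusted p = 5.88e-05). In SK-Mel5 CCNE1 was at 5.55 and 5.56 with shp300, against 6.12 and 6.21 with scrambled shRNA. That fall was smaller, 0.60 (1.52-fold, adjusted p = 0.00887), and leaving out replicate 2 of SK-Mel5 scrambled made it -0.56, not called (adjusted p = 0.0609).

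CCNE2 had the largest fall of the 10 genes in WM983B, 2.01 (SE 0.15, 4.03-fold, adjusted p = 0.000101). It was at 5.48 and 5.56 on the arrays labelled shp300, against 7.69 and 7.38 with scrambled shRNA. In SK-Mel5 it was at 2.16 and 1.87 with shp300, against 3.65 and 3.70 with scrambled shRNA, and it fell by 1.66 (3.15-fold, adjusted p = 0.000322). The SK-Mel5 shp300 level lay at the 34.5th percentile of features, below the median feature, so the size of that fall is less certain. CCNE2 overlaps INTS8, a subunit gene of the Integrator complex, and NDUFAF6, an assembly factor of respiratory complex I. INTS8 changed by -0.14 in WM983B and -0.05 in SK-Mel5, neither called. NDUFAF6 fell by 0.80 in WM983B (adjusted p = 0.00395) and changed by -0.09 in SK-Mel5 (adjusted p = 0.76). Within an array, CCNE1 minus CCNE2 shifted by 0.21 in WM983B and by 1.05 in SK-Mel5.

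CDK2, the kinase of cyclins E and A, fell in WM983B. It was at 11.40 and 11.35 on the WM983B arrays labelled shp300, against 11.76 and 11.81 with scrambled shRNA, a fall of 0.41 (SE 0.11, 1.33-fold, adjusted p = 0.0306). CDK2 in SK-Mel5 was at 10.20 and 10.37 with shp300, against 10.47 and 10.44 with scrambled shRNA, a change of -0.17 (95% interval -0.42 to 0.08, adjusted p = 0.379). The arrays did not overlap in either line. The WM983B call was lost without any 1 of the 4 WM983B arrays (adjusted p 0.0819 to 0.14), without SK-Mel5 scrambled replicate 1 or 2 (0.0509 each) and in a fit of the WM983B arrays alone (0.05). CDK2 lies beside PMEL, a melanosome gene that MITF is known to activate. PMEL changed by -0.42 in WM983B (adjusted p = 0.0434), a call lost in 11 alternative settings, among them each of WM983B scrambled replicates 1 and 2, WM983B shp300 replicate 2 and every SK-Mel5 array left out (adjusted p up to 0.2). In SK-Mel5 PMEL changed by 0.05.

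CCNA2, which encodes cyclin A2, the cyclin of S phase and G2, fell in both lines and had the largest fall of the 10 genes in SK-Mel5. It was at 4.21 and 4.56 with shp300, against 6.40 and 6.44 with scrambled shRNA in SK-Mel5, a fall of 2.03 (SE 0.14, 4.09-fold, adjusted p = 0.000109). In WM983B it was at 7.22 and 7.32 with the shp300 label, against 8.38 and 8.30 with scrambled shRNA, a fall of 1.07 (2.1-fold, adjusted p = 0.00116). The groups were clearly apart in each line, and the calls were kept in every setting tried. EXOSC9, a gene of the RNA exosome that overlaps CCNA2, fell by 0.70 in WM983B (adjusted p = 0.0123), a call lost when replicate 1 of either WM983B group was left out (adjusted p up to 0.0837). In SK-Mel5 EXOSC9 changed by -0.39 (adjusted p = 0.127).

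CDC25A, the phosphatase that removes inhibitory phosphates from CDK2, fell in both lines. It was at 5.04 and 5.22 on the WM983B arrays labelled shp300, against 6.30 and 6.27 with scrambled shRNA, a fall of 1.16 (SE 0.14, 2.23-fold, adjusted p = 0.000982). CDC25A in SK-Mel5 was at 3.54 and 3.42 with shp300, against 4.36 and 4.70 with scrambled shRNA, a fall of 1.05 (2.07-fold, adjusted p = 0.00226). Both calls were kept in every setting tried.

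Promoters of these last 2 genes are shown because both genes fell in both lines and their windows held motifs that were searched for. CCNE1 also fell in both lines and has a window, which held none of these motifs and is not printed. Each line gives the 220 bases before the annotated start (RefSeq, GRCh38.p14, minus strand, 5′ to 3′), for CCNA2 at chr4:121823884-121824103 and for CDC25A at chr3:48188418-48188637. In the CCNA2 sequence capitals mark the cyclic AMP response element TGACGTCA at -81 and the NF-Y box CCAAT, on the other strand ATTGG, at -56. In the CDC25A sequence capitals mark the E2F motif TTTGGCGC at -44 and CCAAT, again as ATTGG, at -110 and -58.
CCNA2: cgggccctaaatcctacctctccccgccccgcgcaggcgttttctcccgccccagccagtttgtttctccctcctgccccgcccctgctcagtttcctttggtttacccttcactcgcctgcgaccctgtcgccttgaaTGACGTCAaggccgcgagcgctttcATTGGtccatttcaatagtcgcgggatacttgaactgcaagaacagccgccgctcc
CDC25A: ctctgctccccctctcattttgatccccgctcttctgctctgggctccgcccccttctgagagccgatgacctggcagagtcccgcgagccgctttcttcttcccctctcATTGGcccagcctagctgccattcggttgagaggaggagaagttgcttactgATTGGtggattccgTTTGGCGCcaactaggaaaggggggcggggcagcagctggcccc
TGACGTCA is present on either strand in 1.85% of the 35116 windows, the E2F letters searched (TTTCCCGC, TTTGGCGC, TTTGCCGC or TTTCGCGC) in 3.31% and CCAAT in 34.6%. The CHR letters TTTGAA, held by 15.2% of windows, and the AP-1 motif TGANTCA, held by 7.71%, were searched in the same way and found in no window of the members. Other letters of the CHR element were not searched, so the absence of a CHR element cannot be read from this. Windows were available for 6 of the 10 genes, 9 in all, and CCND1, CCND2, CCNE2 and CDK2 had none. CCND3 held CCAAT alone, in 2 of its 3 windows.

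The change under shp300 differed between the lines for 5 of the 10 genes by the test of the difference itself (WM983B change minus SK-Mel5 change). It was more positive in WM983B for 3, CCND1, CCNA2 and CDK6, where 5.00% of all features were called in that direction. It was more negative in WM983B for 2, CCNE1 and CDK4, where 4.46% of all features were. The median difference of the 10 genes was -0.17, beside 0.01 over all features. CDK6 differed by 1.93 (SE 0.21, 95% interval 1.45 to 2.41, adjusted p = 0.00262) and CCND1 by 1.66 (SE 0.14, 95% interval 1.33 to 1.99, adjusted p = 0.00114). CCNE1 differed by -1.20 (SE 0.16, adjusted p = 0.00474), since its fall was larger in WM983B. These 3 differences were called in every setting tried.

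The differences of CCNA2 and CDK4 were less secure. CCNA2 differed by 0.96 (95% interval 0.52 to 1.41, adjusted p = 0.0218), its fall being larger in SK-Mel5. That call was lost without any 1 of the WM983B arrays (adjusted p 0.0519 to 0.0888), without SK-Mel5 scrambled replicate 1 (0.0688) or 2 (0.0729), and after quantile normalization of all arrays together (0.0544). CDK4 differed by -0.68 (95% interval -1.02 to -0.35, adjusted p = 0.0267), a call lost without any 1 of the 8 arrays (adjusted p 0.0557 to 0.0969). The count of 5 became 3 when any 1 of the WM983B arrays or of the SK-Mel5 scrambled arrays was left out. For CCND3 the difference was -0.88 (95% interval -1.42 to -0.33, adjusted p = 0.0587), outside the threshold. It was inside in 5 other settings, among them without SK-Mel5 shp300 replicate 1 (adjusted p = 0.0145), with adjusted p between 0.0107 and 0.164 over all settings.

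The differences of the other 4 genes were not called. Their 95% intervals, which hold the differences these arrays leave possible, were -0.64 to 0.57 for CCND2, -0.83 to 0.13 for CCNE2, -0.59 to 0.12 for CDK2 and -0.58 to 0.36 for CDC25A. EP300 itself differed between the lines by 0.95 (adjusted p = 0.0357), a call lost in 7 alternative settings, 6 of them with 1 array left out (adjusted p up to 0.119).

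Over both lines together, in a model with line and shRNA as terms, none of the 10 genes rose, where 7.63% of all features rose. In the same model 5 fell, CCND3, CCNE1, CCNE2, CCNA2 and CDC25A, where 9.15% of all features fell. CCNE2 fell by 1.83 (adjusted p = 4.22e-05), CCNA2 by 1.55 (adjusted p = 0.000813), CCNE1 by 1.20 (adjusted p = 0.00563), CDC25A by 1.10 (adjusted p = 0.000243) and CCND3 by 0.74 (adjusted p = 0.028). The CCND3 call was lost without any 1 of the WM983B arrays (adjusted p 0.085 to 0.0883) or without SK-Mel5 shp300 replicate 1 (0.0668). CDK6 averaged 0.16 over the lines (adjusted p = 0.823), the mean of a rise and a fall. CDK2 averaged -0.29 (adjusted p = 0.0702), a value called in 5 other settings, among them without SK-Mel5 shp300 replicate 2 (adjusted p = 0.0449), and CDK4 averaged -0.20 (adjusted p = 0.423). CCND1 averaged 0.67 (adjusted p = 0.165) and became a called rise (adjusted p = 0.000351) when the changes of the 2 lines were averaged in the model of 4 groups, which does not count the difference between lines as error.

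**Figure D3:**
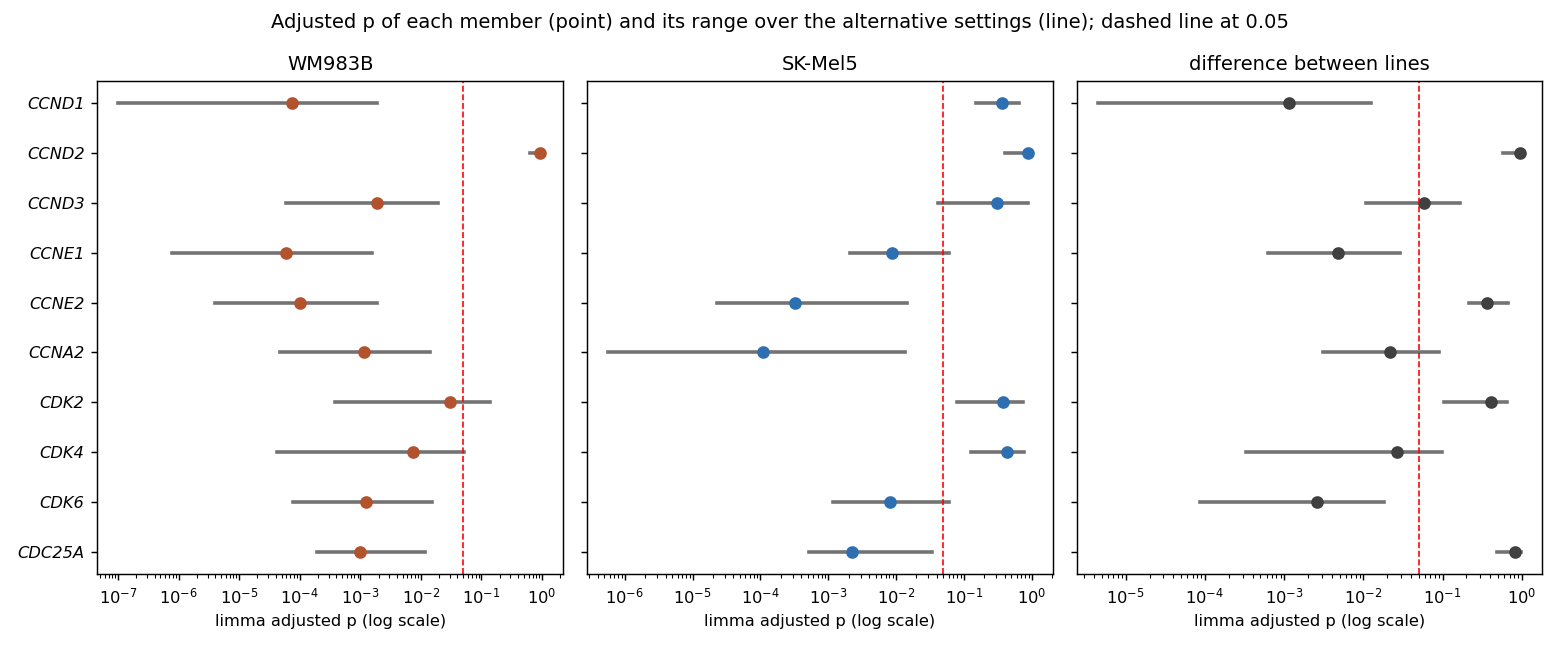
Points give limma's adjusted p of each gene, on a log scale, in WM983B, in SK-Mel5 and for the difference between lines, gray lines span its range over the alternative settings, and the dashed line stands at 0.05. The spans of CCND1, CCNE1 and CDK6 stay left of the dashed line in WM983B and in the difference, while those of CCNA2 and CDK4 cross it in the difference.

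Of 6 measured inhibitors of these kinases 4 rose and none fell in WM983B (median change 1.02), and 2 rose and none fell in SK-Mel5 (median 0.09). Over all features 10.9% rose and 11.6% fell in WM983B, and 7.57% rose and 8.80% fell in SK-Mel5. The other 2 inhibitors, CDKN2D and CDKN1C, changed by -0.34 and -0.11 in WM983B and by 0.10 and -0.26 in SK-Mel5, none of them called. CDKN2B, which encodes the INK4 inhibitor p15 of CDK4 and CDK6, was at 8.20 and 8.40 on the WM983B arrays labelled shp300, against 4.86 and 4.83 with scrambled shRNA, and rose by 3.45 (adjusted p = 1.16e-05). In SK-Mel5 CDKN2B was at 1.30 and 1.37 with shp300, against 1.40 and 1.49 with scrambled shRNA, a low level in both groups, and its change of -0.11 was not called (adjusted p = 0.621). The difference between lines was 3.56 (adjusted p = 0.000264). CDKN1A, which encodes p21, rose by 1.16 in WM983B and 0.57 in SK-Mel5. CDKN1B, which encodes p27, rose by 1.04 in WM983B and 0.68 in SK-Mel5. Both SK-Mel5 calls were lost without WM983B scrambled replicate 1 or 2, SK-Mel5 scrambled replicate 1, or SK-Mel5 shp300 replicate 1 or 2, and that of CDKN1A also without SK-Mel5 scrambled replicate 2 (adjusted p up to 0.118 for CDKN1A and 0.136 for CDKN1B). CDKN2A rose by 0.99 in WM983B (adjusted p = 0.00281). In SK-Mel5 CDKN2A was at 1.44 and 1.52 with shp300, against 1.44 and 1.35 with scrambled shRNA, a low level in both groups. Its change of 0.09 there was not called (adjusted p = 0.803).

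Downstream of these kinases, of 13 RB, E2F and DP genes none rose and 6 fell in WM983B (median -0.34), while 1 rose and 4 fell in SK-Mel5 (median -0.10). The shares of all features were 10.9% higher and 11.6% lower in WM983B, and 7.57% higher and 8.80% lower in SK-Mel5. The 1 rise in SK-Mel5 is thus a share near that of all features. E2F1, an activator of S phase genes, fell by 2.14 in WM983B and 1.21 in SK-Mel5. E2F8, a repressor that is itself made in S phase, fell by 1.90 and 0.97 in the same lines, and its difference of -0.93 was called (adjusted p = 0.0091). RBL1, which encodes the RB relative p107, fell by 1.66 in WM983B and 1.28 in SK-Mel5. E2F2 fell by 0.94 in WM983B and changed by -0.29 in SK-Mel5, which was not called. E2F5 changed by 0.34 in WM983B, not called, and fell by 1.18 in SK-Mel5. The rise in SK-Mel5 was that of RB1, 0.49 (adjusted p = 0.0211), lost without SK-Mel5 scrambled replicate 1 or 2 or SK-Mel5 shp300 replicate 1 (adjusted p up to 0.114).

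Of 23 measured G1 to S genes known as E2F targets, all 23 fell in WM983B (median -1.71) and all 23 fell in SK-Mel5 (median -0.97), beside 11.6% and 8.80% of all features in the same lines. Without SK-Mel5 scrambled replicate 2 the SK-Mel5 count was 15. CHAF1B, a subunit of a histone chaperone at the replication fork, fell by 2.13 in WM983B and 1.14 in SK-Mel5. The replicative helicase genes MCM5 and MCM6 fell by 2.34 and 1.99 in WM983B and by 1.61 and 1.35 in SK-Mel5, and MCM4 fell by 1.75 in WM983B and 1.74 in SK-Mel5. TYMS, which makes thymidylate for DNA, fell by 1.91 in WM983B and 0.94 in SK-Mel5.

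**Figure D4:**
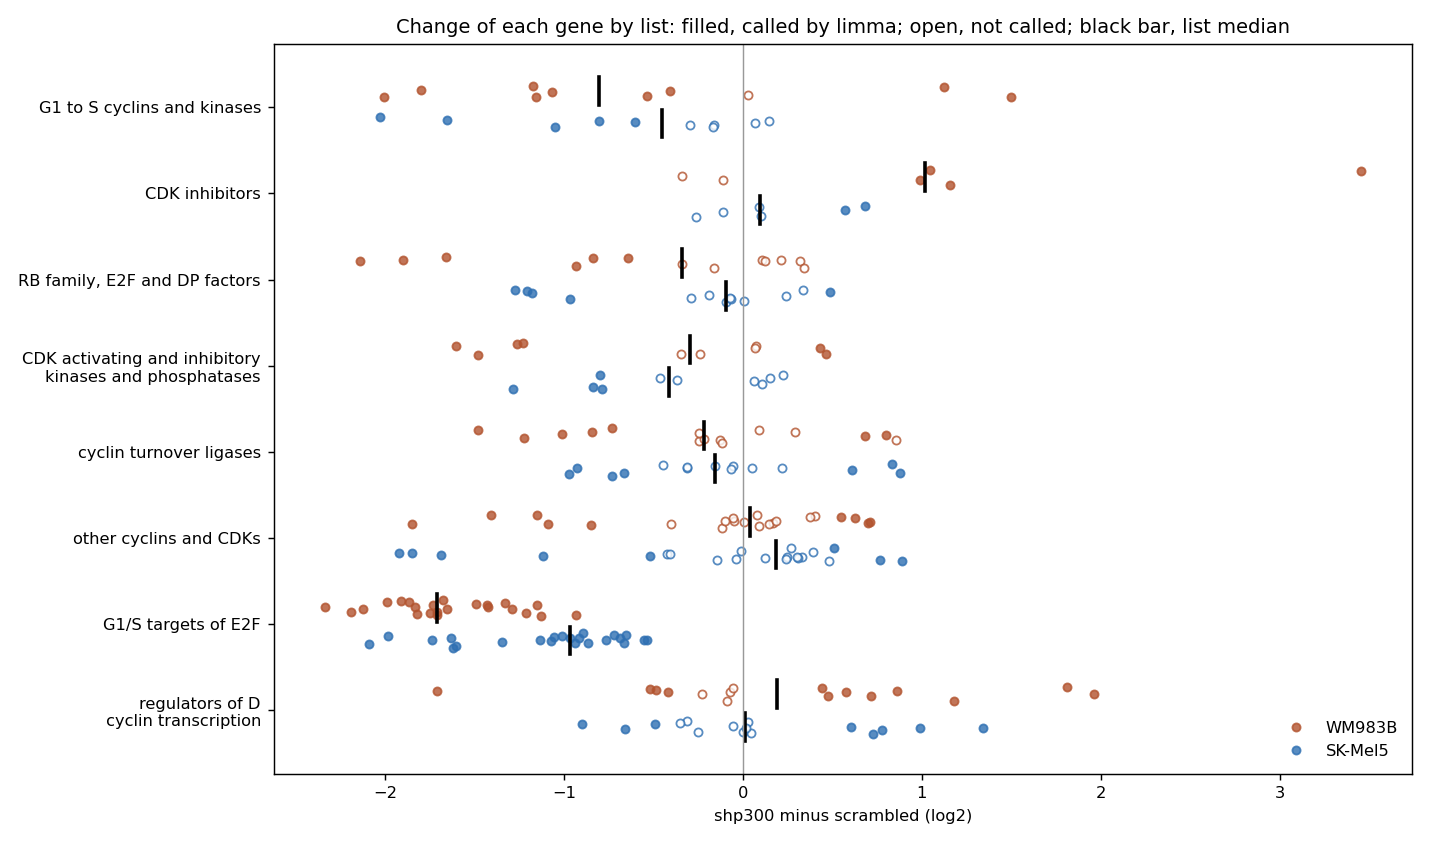
Each point is the log2 change (shp300 minus scrambled) of 1 gene in WM983B or SK-Mel5, by gene list, filled where limma called it, with a black bar at the list median. All 23 E2F targets lie left of 0 in both lines, and CDKN2B at 3.45 in WM983B stands apart from the other CDK inhibitors.

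Among 10 genes that switch CDKs on or off by phosphorylation, 2 rose and 4 fell in WM983B (median -0.29), and none rose and 4 fell in SK-Mel5 (median -0.42). Among all features 10.9% rose and 11.6% fell in WM983B, and 7.57% rose and 8.80% fell in SK-Mel5. The 2 rises were lost without any 1 of the WM983B arrays. CDC25C, the mitotic relative of CDC25A, fell by 1.23 in WM983B and 1.29 in SK-Mel5. The checkpoint kinases that mark CDC25A for destruction were lower: CHEK1 fell by 1.27 in WM983B and 0.79 in SK-Mel5, and CHEK2 by 1.48 in WM983B and 0.84 in SK-Mel5. PKMYT1, an inhibitory kinase of CDK1, fell by 1.61 in WM983B and changed by -0.47 in SK-Mel5, which was not called. WEE1, which phosphorylates the site that CDC25A clears, changed by 0.07 in WM983B (adjusted p = 0.841) and fell by 0.80 in SK-Mel5. That call was lost without SK-Mel5 scrambled replicate 1 or 2 or SK-Mel5 shp300 replicate 2 (adjusted p up to 0.0829).

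Of 15 genes of cyclin turnover, the ubiquitin ligases that degrade D and E cyclins and their helpers, 2 rose and 5 fell in WM983B (median -0.22), and 3 rose and 4 fell in SK-Mel5 (median -0.16). The 2 rises in WM983B are a share near that of all features, of which 10.9% rose and 11.6% fell there, and 7.57% rose and 8.80% fell in SK-Mel5. BTRC, a ligase subunit that recognizes phosphorylated CDC25A, rose by 0.80 in WM983B and 0.83 in SK-Mel5. The CDK subunit CKS2 fell by 0.73 in WM983B and 0.97 in SK-Mel5. CKS1B, the CKS protein that helps SKP2 degrade CDKN1B, fell by 1.48 in WM983B and 0.93 in SK-Mel5, with the SK-Mel5 call lost without replicate 1 of SK-Mel5 scrambled or of SK-Mel5 shp300 (adjusted p up to 0.0919). FBXO5, an inhibitor of the anaphase promoting complex, fell by 1.22 in WM983B and 0.66 in SK-Mel5, and its SK-Mel5 call was lost without SK-Mel5 scrambled replicate 1 or SK-Mel5 shp300 replicate 2 (adjusted p up to 0.148). USP28, a deubiquitinase, changed by -0.12 in WM983B, not called, and fell by 0.74 in SK-Mel5. The count of rises in WM983B was 1 without WM983B scrambled replicate 1 or either WM983B shp300 array, and that of falls in SK-Mel5 was 2 without SK-Mel5 scrambled replicate 1.

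Among the other 22 measured cyclins and CDKs, 4 rose and 5 fell in WM983B (median 0.04), and 3 rose and 5 fell in SK-Mel5 (median 0.18). Beside these counts, 10.9% of all features rose and 11.6% fell in WM983B, and 7.57% rose and 8.80% fell in SK-Mel5. Of the genes with the smallest p, 3 that act in mitosis fell in both lines: CDK1 by 1.85 in WM983B and 1.69 in SK-Mel5, CCNB1 by 1.09 in WM983B and 1.85 in SK-Mel5, and CCNB2 by 1.41 in WM983B and 1.93 in SK-Mel5. The third B cyclin gene, CCNB3, changed by 0.17 in WM983B and 0.48 in SK-Mel5, neither called. CCNT1, the cyclin of the transcription elongation kinase CDK9, changed by 0.18 in WM983B (not called) and fell by 1.12 in SK-Mel5, a difference of 1.30 (adjusted p = 0.00588). CCNG1, a p53 target, changed by -0.12 in WM983B (not called) and rose by 0.89 in SK-Mel5, a difference of -1.01 (adjusted p = 0.0102). The WM983B counts were 2 rises without replicate 2 of either WM983B group, and 3 falls without WM983B scrambled replicate 1 or 2 or WM983B shp300 replicate 1.

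Of 16 genes listed as regulators of D cyclin and CDK inhibitor transcription, 8 rose and 4 fell in WM983B (median 0.19), and 5 rose and 3 fell in SK-Mel5 (median 0.01). The list also holds the melanosome gene PMEL, which is not such a regulator and is among the 4 falls in WM983B. The shares of all features were 10.9% higher and 11.6% lower in WM983B, and 7.57% higher and 8.80% lower in SK-Mel5. JUN and FOSL1, AP-1 factors that activate CCND1, rose in both lines. JUN rose by 1.96 in WM983B and 1.34 in SK-Mel5, and FOSL1 by 1.18 in WM983B and 0.78 in SK-Mel5. CCND1 was called in WM983B alone, and a part of the listed regulators in its change was not tested. TBX3, a repressor of CDK inhibitor genes, rose by 1.81 in WM983B and changed by -0.06 in SK-Mel5, and the difference of 1.87 was called (adjusted p = 0.00674). Its relative TBX2 rose by 0.44 in WM983B, a call lost without replicate 1 of WM983B scrambled or either WM983B shp300 array (adjusted p up to 0.189), and by 0.99 in SK-Mel5. MITF is in this list too, and its change differed between lines by -1.46 (adjusted p = 0.0057). Without WM983B scrambled replicate 1 there were 5 rises in WM983B, and without WM983B scrambled replicate 1 or 2 or WM983B shp300 replicate 2 there was 1 fall. In SK-Mel5 there were 3 rises without SK-Mel5 scrambled replicate 1, and 1 fall without SK-Mel5 scrambled replicate 1 or 2.

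Features with 1 symbol, other than the 10 genes themselves, were ranked by the Euclidean distance of their pattern to each gene over the 8 arrays. Each value was taken as its deviation from the mean of its line. Nearest to CCND1 were ATE1OSP (distance 0.219), SDC4 (0.225) and ALCAM (0.234), and nearest to CDK6 were VEGFA (0.304), EIF2AK3 (0.391) and MAP1B (0.399). CCND3 was nearest to RORB (0.185), SYT11 (0.235) and PRPS2 (0.272), and CDK4 to ATIC (0.0648), PTER (0.0824) and TELO2 (0.107). CCNA2 was nearest to the mitotic genes TOP2A (0.244), KIF23 (0.252) and ANLN (0.262). CCNE1 was nearest to MCM7 (0.238), PTPRG-AS1 (0.257) and IRX6 (0.271), and CCNE2 to CENPU (0.327), CDK1 (0.342) and SLC25A32 (0.366). CDC25A was nearest to MACIR (0.178), MIS18A (0.195) and PCGF5 (0.211), and CDK2 to RNF214 (0.108), NICOL1 (0.117) and NPBWR2 (0.119). Small distances also come with small changes, so they are not compared between genes.

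Of 7 measured markers of HEK293T, the packaging line of many lentiviral preparations, 2 rose in WM983B: CDH2 by 1.13 and NEFM by 0.49, the call of NEFM being lost in 10 alternative settings. None was called in SK-Mel5, and 5 in WM983B and 6 in SK-Mel5 lay below the median feature. Their mean was 4.14 to 4.19 with the shp300 label, against 3.80 to 3.85 with scrambled shRNA in WM983B, and 3.13 to 3.14 with shp300, against 3.16 to 3.22 with scrambled shRNA in SK-Mel5. In SK-Mel5 NEFL lay at the 98.8th percentile of features with shp300 and the 99.0th with scrambled shRNA. CDH2 lay in WM983B at the 95.6th percentile with the shp300 label and the 88.6th with scrambled shRNA. Of 5 leukocyte markers LYZ rose by 1.74 and CD68 fell by 1.46 in WM983B, and CD68 fell by 1.74 in SK-Mel5. CD68 lay between the 95.1st and 99.4th percentiles of features in every group. Of the 5 leukocyte markers, 3 in WM983B and 4 in SK-Mel5 lay below the median feature. Of 7 fibroblast markers 1 rose in WM983B, DCN by 0.71, and in SK-Mel5 DCN rose by 1.33 and LUM fell by 0.88. In every group 3 of the 7 lay below the median feature, while LUM lay between the 97.4th and 99.0th percentiles of features. Of 4 keratinocyte markers 1 rose in WM983B, and all 4 lay below the median feature in every group, as did all 4 endothelial markers, none of which was called. In WM983B 10.9% of all features rose and 11.6% fell, and in SK-Mel5 7.57% rose and 8.80% fell. The part of other cells in the changes of the 10 genes was not tested.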

How the data were processed

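RNA of 8 samples of WM983B and SK-Mel5 cells was hybridized to Affymetrix arrays, and the deposited table gives log2 expression values for gene features. Per the submitters' processing notes, the authors obtained them by RMA, using affy 1.36.1 under R 2.15.1. How probes were assigned to genes is not stated in the labels. Values of WM983B and of SK-Mel5 follow different distributions, with array means of 4.71 to 4.72 in WM983B and 3.67 to 3.69 in SK-Mel5. Whether each line was normalized on its own was not tested. The difference between lines sets changes from these 2 distributions against each other. Features carry Entrez Gene numbers: of 23786, 22458 matched 1 symbol, 0 several and 1328 none. No feature was filtered, and 0 columns were left out. The number of arrays limits the precision.

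Samples were grouped by their labels. A 4-group linear model of all 8 arrays was fitted in limma 3.58.1 (R 4.3.3, lmFit and eBayes), and shp300 minus scrambled was taken in WM983B, in SK-Mel5 and between the lines, as the WM983B change less the SK-Mel5 change. The joint change over the lines came from a second model with line and shRNA as additive terms. All tests were two-sided with Benjamini-Hochberg adjustment across every feature, separately in the 4 comparisons, and calls were made under 0.05. The fit was tested on simulated data. The members, the 7 pathway lists and the 6 marker lists were chosen with earlier results of these data known. The text names the 10 members, EP300, MKI67, up to 5 genes of each list with the smallest p in either line, and the 3 features nearest to each member called in either line. Genes that overlap or neighbour a member, RB1, CCNB3, CDKN1C, MYC and called markers of other cells were added after their values were seen. CDKN2C, CDK3, CDK11A, CDK11B and 5 other listed genes are not analysed here.

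Results were recomputed with replicate number as a block, without dim features, after centring, quantile or cyclic loess normalization of all arrays, with trended robust eBayes, with array weights, with each array left out, with the arrays of 1 line alone, with the mean of both lines, at an adjusted p under 0.1 and at a minimum of 1.5-fold. Deviations of arrays with the same number in a line correlated at 0.0030 in WM983B and 0.0277 in SK-Mel5, so no large shift shared by number was seen. The labels do not say whether arrays of the same number were prepared together. Promoter letters are RefSeq's.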

Additional observations from a re-analysis of the deposited data

Results flagged for a closer look

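For 5 of the 10 genes the change under shp300 differed between WM983B and SK-Mel5 by limma's test of the difference itself. The WM983B change minus the SK-Mel5 change was 1.66 for CCND1 (adjusted p = 0.00114), 1.93 for CDK6 (adjusted p = 0.00262), 0.96 for CCNA2 (adjusted p = 0.0218), -0.68 for CDK4 (adjusted p = 0.0267) and -1.20 for CCNE1 (adjusted p = 0.00474). CDK6 was called in both lines in opposite directions, CCNA2 and CCNE1 in both lines in the same direction, and CCND1 and CDK4 in WM983B alone. EP300 was measured lower in SK-Mel5 and not in WM983B, and whether the differences follow from that was not tested.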

How the results depend on the processing

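Of 626 values of the 10 genes under alternative settings, 581 kept the side of the threshold they had, 33 lost a call and 12 gained one. No called value changed sign, and 16 uncalled values of CCND2, CDK6 over both lines and CDC25A in the difference did, at sizes up to 0.20. With 1 array left out the number of genes called was 7 to 9 in WM983B, 4 to 6 in SK-Mel5, 4 to 6 over both lines and 3 to 5 in the difference. With the replicate number as a replicate block the counts were 8, 5, 4 and 4 in the same order, the calls of CDK2 in WM983B (adjusted p = 0.0698), CCND3 over both lines (0.0684) and CDK4 in the difference (0.0733) being lost; for these calls the cause was not tested. Over all features, the calls over both lines numbered 3991, against 2560 with the block, 6143 with the mean of both lines and 2291 at 1.5-fold. Those in the difference numbered 2250, against 1351 with the block, 3404 at an adjusted p under 0.1 and 885 to 1784 with 1 array left out. SK-Mel5 had 3894 calls, against 2050 in a fit of its own arrays and 2143 without SK-Mel5 scrambled replicate 1, and WM983B had 5352, against 3146 without WM983B scrambled replicate 2. With 2 arrays a group, a gene close to the threshold can fall on either side.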
